A study of Mus musculus with 36 samples.

Results

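The 33 genes described here encode the enzymes, regulators and transport proteins that turn sugar carbon into fatty acids and triglycerides in the liver. They were chosen as a named list of symbols, by function and with no threshold on their values, and all 33 were found among the 36066 genes of the deposited table. Earlier results of these data were known when the list was made, so member counts set beside those of all genes are descriptive. Sequencing covered liver RNA of 36 mice, 3 of each sex in 6 treatments, all at the age of 4 months and after an overnight fast. The mice of 5 treatments were Gulo-/-, that is, unable to complete the synthesis of ascorbate (vitamin C). GL00 mice received 0.4% ascorbate in the drinking water until the age of 3 months and none for the last 4 weeks. GL01, GL05 and GL40 mice received 0.01%, 0.05% and 0.4% ascorbate since weaning. GLR40 mice had ascorbate removed at the age of 2 months for 1 month and then received 0.4% again. WT00 mice were Gulo+/+ and received none. The prefix F or M gives the sex. Expression is given in TPM, a transcript's share of its library that sums to 1000000 per mouse. These values are scaled by transcript length and can be compared between genes. As the tissue was whole liver, fewer cells of a type and less RNA per cell cannot be told apart.

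Lipogenesis builds palmitate from acetyl-CoA with NADPH, lengthens and desaturates it, and joins the products to glycerol. In the liver it is driven by insulin through the transcription factor SREBP-1c, encoded by Srebf1, and by sugar through ChREBP, encoded by Mlxipl, while LXR alpha, encoded by Nr1h3, acts upstream of both. Fasting lowers most of these transcripts and refeeding raises them.

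The hepatocyte gene Alb averaged 41273 to 61716 TPM in the 12 groups. The summed TPM of the 12 exocrine pancreas markers reached 12912 in 1 control female, FGL40-2695, and at most 74.9 in each other mouse. This mouse had the lowest TPM of its group for 22 of the 33 members. FGL01-2722 was the lowest of its group for 26 members and MGL01-2713 for 21. MGL40-2719 had the highest adipocyte marker sum, 111 TPM, against 20.5 to 63.6 TPM in each other male. Counts of called members without these mice are given for several comparisons. Values of single members without them are given only for Scd1, in males and in the interaction of sex with GL00 over GL40. The mitochondrial genome supplied 11.5% to 15.8% of the TPM of each mouse. Gulo transcripts lay at 144 to 269 TPM in WT00 mice and at 16.4 to 52.2 TPM in Gulo-/- mice. The file title of 1 mouse, MGLR40-2831, calls it female, while its sex label says male, and it was used as male. The Y chromosome gene Ddx3y lay at 15.1 to 29.1 TPM in all mice used as male, this mouse included, and at no more than 0.875 TPM in females.

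All 33 members were detected in every mouse, so none was lost to the filter on low values. Scd1, the main stearoyl-CoA desaturase of liver, had the highest mean over the 36 mice, 927 TPM, and Pnpla3, a lipid droplet protein, the lowest, 1.49 TPM. Khk, Dgat2, Elovl5, Agpat2, Elovl2 and Tkfc followed Scd1 with means of 287, 280.0, 245, 235, 231 and 204 TPM. The summed TPM of the other 32 members was 2220 ± 38.8 in FGL00 mice, against 3131 ± 246 in FGL40 mice, and 2454 ± 48.1 in MGL00 mice, against 3199 ± 194 in MGL40 mice (mean ± SD, n = 3 each).

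The first comparison asks what 4 weeks without ascorbate did to these genes in females. In FGL00 livers 18 of the 33 members were lower than in FGL40 livers and 0 were higher, with the steepest falls in Elovl6, Fasn, Pklr, Mid1ip1 and Me1. A gene was called changed at an adjusted p under 0.05 in limma on log2(TPM + 1), with Benjamini-Hochberg adjustment over all 18050 genes tested in females. Over all those genes 13.7% were called lower and 9.56% higher. The median log2 fold change was -0.74 over the 33 members and -0.02 over all genes tested. At an unadjusted p under 0.05, 2 members were higher, and median-ratio scaling called 2 members higher and 18 lower.

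**Figure D1:**
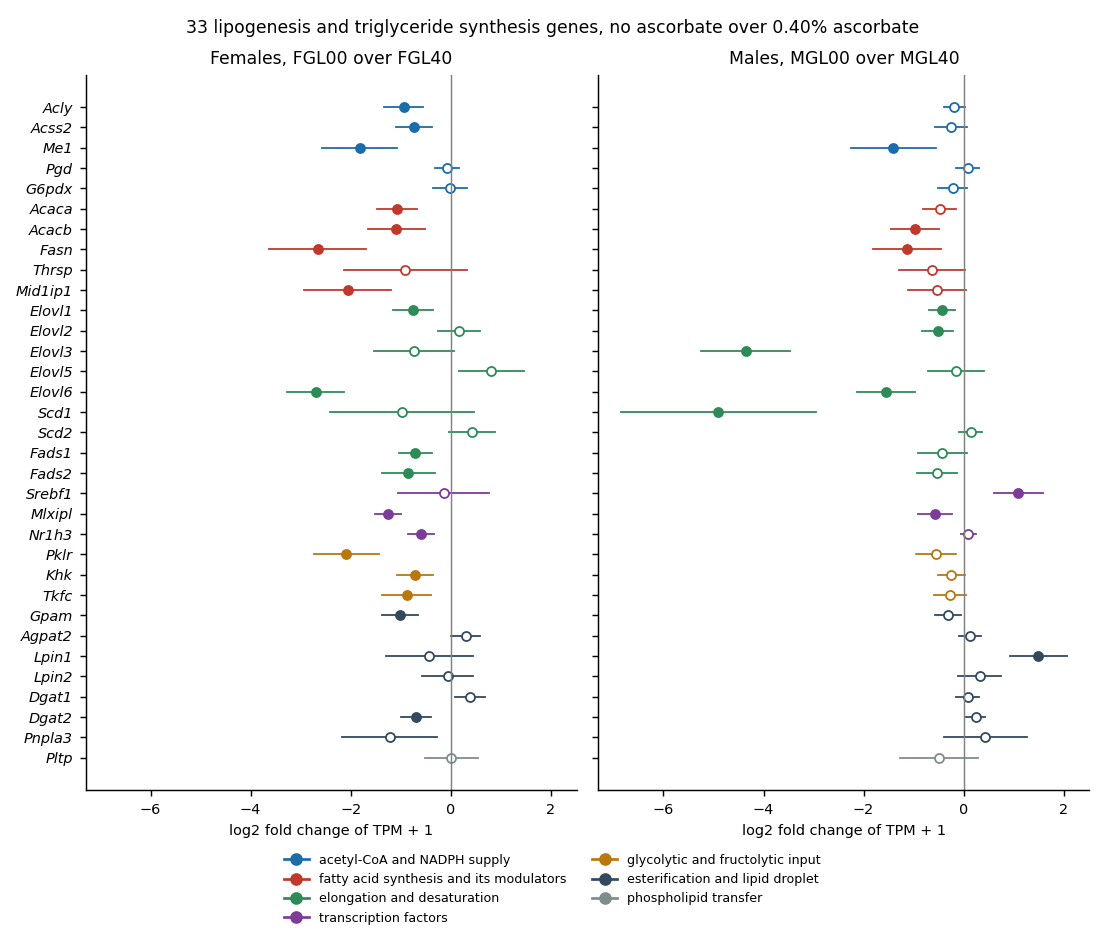
Log2 fold changes of TPM + 1 for the 33 member genes in FGL00 over FGL40 livers (left) and MGL00 over MGL40 livers (right), coloured by role. Points are limma estimates from 3 mice against 3, lines are 95% confidence intervals, and filled points have an adjusted p under 0.05. In females 18 points are filled, all below 0. In males 9 filled points lie below 0 and 2, Srebf1 and Lpin1, above it.

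Of the 5 fatty acid synthesis members 4 fell in females. Fasn, the fatty acid synthase that assembles palmitate, had 12.8, 22.6 and 12.9 TPM in the FGL00 livers, against 138, 69.4 and 115 TPM in the FGL40 livers. Every FGL00 value lay below the lowest FGL40 value, which belonged to FGL40-2695 (log2 fold change -2.66, SE 0.45, adjusted p = 0.00088). Acaca, the cytosolic acetyl-CoA carboxylase that commits carbon to the pathway, had 10.6, 11.4 and 8.78 TPM in FGL00, against 22.2, 20.2 and 25.9 TPM in FGL40, and these groups did not overlap either (log2 fold change -1.07, SE 0.19, adjusted p = 0.000982). Mid1ip1, a protein that helps acetyl-CoA carboxylase polymerize, had 4.73, 8.03 and 4.20 TPM in FGL00, against 31.7, 26.3 and 21.1 TPM in FGL40 (log2 fold change -2.07, SE 0.41, adjusted p = 0.00211). Acacb, the carboxylase at the mitochondrial surface, changed by -1.09 on the log2 scale. The fifth member of this role, Thrsp, a partner of Mid1ip1 that responds to thyroid hormone and carbohydrate, was not called (-0.91, 95% interval -2.14 to 0.32).

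The genes that supply acetyl-CoA and NADPH divided. Acly, which releases acetyl-CoA from citrate, had 24.2, 35.8 and 31.5 TPM in FGL00, against 63.5, 51.2 and 62.8 TPM in FGL40 (log2 fold change -0.94, SE 0.18, adjusted p = 0.0018). Me1, the malic enzyme that yields NADPH, had 28.6, 24.4 and 28.8 TPM in FGL00, against 106, 91.3 and 99.9 TPM in FGL40 without overlap (log2 fold change -1.83, SE 0.35, adjusted p = 0.0017). Acss2, which activates acetate, changed by -0.73. The pentose phosphate enzymes Pgd and G6pdx, which also yield NADPH, were not called, with log2 values of -0.08 (95% interval -0.33 to 0.16) and -0.03 (-0.37 to 0.31).

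Upstream of these, all 3 sugar-handling members fell in females. Pklr, the liver pyruvate kinase and a classical target of ChREBP, had 18, 18.2 and 22.5 TPM in FGL00, against 106, 66.3 and 91.7 TPM in FGL40 (log2 fold change -2.09, SE 0.31, adjusted p = 0.000294). Khk, the ketohexokinase that opens fructose metabolism, changed by -0.72, and Tkfc, the triokinase of the same route, by -0.89. Among the transcription factors, Mlxipl had 89.8, 102 and 94.5 TPM in FGL00, against 231, 223 and 232 TPM in FGL40. The mice of each group lay close together, and Mlxipl had the smallest adjusted p of the 33 members (log2 fold change -1.25, SE 0.12, adjusted p = 1.34e-05). Nr1h3 was even tighter, with 55.6, 56.7 and 55.3 TPM in FGL00, against 85.6, 87 and 84 TPM in FGL40 (log2 fold change -0.61, SE 0.12, adjusted p = 0.00249). Srebf1 had 105, 201 and 97.9 TPM in FGL00, against 166, 109 and 154 TPM in FGL40, so that the groups overlapped and no change was called (-0.14, 95% interval -1.05 to 0.77).

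Of the 9 elongases and desaturases 4 fell in females. Elovl6, which lengthens palmitate to stearate, had 1.49, 1.83 and 1.60 TPM in FGL00, against 19.6, 11.9 and 18 TPM in FGL40, the most negative log2 fold change of all members (log2 fold change -2.70, SE 0.27, adjusted p = 1.89e-05). Elovl1, an elongase of very long chains, changed by -0.76. The delta-5 and delta-6 desaturases Fads1 and Fads2, which make polyunsaturated fatty acids, changed by -0.71 and -0.85. Scd1, which puts the double bond into stearate, had 249, 245 and 230.0 TPM in FGL00, against 676, 239.8 and 675 TPM in FGL40. The value of FGL40-2695 fell inside the FGL00 range, and Scd1 was not called (-0.99, 95% interval -2.42 to 0.45). Elovl2, Elovl3, Elovl5 and Scd2 were not called and lay between -0.74 and 0.81.

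At the glycerol end 2 of 7 members fell. Gpam, the mitochondrial acyltransferase of the first esterification step, had 31.6, 26.4 and 28.5 TPM in FGL00, against 69.6, 51.7 and 58.1 TPM in FGL40 (log2 fold change -1.02, SE 0.17, adjusted p = 0.000672). Dgat2, one of both enzymes that complete the triglyceride, had 209, 255 and 203 TPM in FGL00, against 376, 336 and 372 TPM in FGL40 (log2 fold change -0.70, SE 0.14, adjusted p = 0.00213). In neither gene did the groups overlap. The counterpart of Dgat2, Dgat1, was not called (0.38), nor were Agpat2, the next acyltransferase, the phosphatidate phosphatases Lpin1 and Lpin2, Pnpla3 or the phospholipid transfer protein Pltp, which ran from -1.22 for Pnpla3 to 0.29 for Agpat2.

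Without FGL40-2695 the count in females was 19 members, and leaving out each of the 6 mice in turn gave 16 to 19. Of the 18 calls 16 held in all 6 of these fits, while Tkfc held in 5 and Fads2 in 2. In the same livers the blood and marrow markers moved too: 5 of 5 erythroid markers tested and 6 of 7 neutrophil markers tested were called higher in FGL00. The summed erythroid markers lay at 1933 to 3428 TPM in FGL00 and 627 to 753 TPM in FGL40, and the summed neutrophil markers at 46.4 to 92.2 TPM in FGL00 and 12.1 to 14.6 TPM in FGL40. Their part in the result was not tested. The neutrophil marker Ly6g stayed at 0 to 0.50 TPM in both groups, and 0 of the 6 adipocyte markers tested were called.

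The promoters of these genes were read because the members moved together. RefSeq promoter windows (build GRCm38.p6, 250 bases before to 50 after each annotated start) were held for 27 members, and Scd1, Scd2, Elovl3, Fads1, Dgat1 and Dgat2 are named only. The sequences below are bases -150 to -21 of 9 members that were lower in FGL00 livers, 5′ to 3′ on the gene's strand, with 2 windows for Mlxipl, which has separate annotated starts. They are shown because they hold a match to 1 of 3 searched motifs in these bases, printed in capitals: the sterol regulatory element core TCACNCCAC, the E-box CACGTG, and CCAAT, the box bound by NF-Y, which reads ATTGG on the other strand.
Fasn, chr11:120824568-120824697, minus strand: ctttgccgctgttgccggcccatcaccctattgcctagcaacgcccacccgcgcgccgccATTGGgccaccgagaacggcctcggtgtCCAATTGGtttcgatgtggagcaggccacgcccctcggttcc
Acacb, chr5:114165368-114165497, plus strand: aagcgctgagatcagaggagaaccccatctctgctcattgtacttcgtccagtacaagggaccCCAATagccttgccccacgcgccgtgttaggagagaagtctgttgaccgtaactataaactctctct
Acss2, chr2:155517893-155518022, plus strand: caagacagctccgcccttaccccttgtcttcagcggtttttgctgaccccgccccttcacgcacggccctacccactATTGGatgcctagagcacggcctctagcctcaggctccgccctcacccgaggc
Pklr, chr3:89136473-89136602, plus strand: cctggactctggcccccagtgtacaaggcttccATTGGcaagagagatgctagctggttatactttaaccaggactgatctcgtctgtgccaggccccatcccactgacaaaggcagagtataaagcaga
Tkfc, chr19:10604279-10604408, minus strand: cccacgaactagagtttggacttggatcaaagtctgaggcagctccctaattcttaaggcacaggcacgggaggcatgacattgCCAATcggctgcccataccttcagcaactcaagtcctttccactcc
Gpam, chr19:55127259-55127388, minus strand: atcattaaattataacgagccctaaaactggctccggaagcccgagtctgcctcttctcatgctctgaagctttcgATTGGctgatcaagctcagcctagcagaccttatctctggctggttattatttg
Elovl1, chr4:118427943-118428072, plus strand: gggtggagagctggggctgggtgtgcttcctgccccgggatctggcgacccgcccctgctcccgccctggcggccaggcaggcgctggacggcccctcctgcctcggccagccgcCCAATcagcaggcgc
Khk, chr5:30921409-30921538, plus strand: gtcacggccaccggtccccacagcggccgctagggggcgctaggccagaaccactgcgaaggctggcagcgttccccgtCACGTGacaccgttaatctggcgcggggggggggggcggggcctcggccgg
Mlxipl, chr5:135106741-135106870, plus strand: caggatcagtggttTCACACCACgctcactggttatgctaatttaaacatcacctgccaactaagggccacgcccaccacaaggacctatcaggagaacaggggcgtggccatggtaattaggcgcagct
Mlxipl, chr5:135089740-135089869, plus strand: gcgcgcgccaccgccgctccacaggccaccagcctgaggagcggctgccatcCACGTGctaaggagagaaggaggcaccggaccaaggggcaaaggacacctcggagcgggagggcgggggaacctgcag

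On both strands of the full windows, CCAAT was found in 17 of the 27 members (63.0%), against 41.1% of the 27025 genes with a window. A gene counted when any of its windows held a match, so genes with more windows had more bases to match. The 27 members had 39 windows, and 10 members had several, while all genes had 32851 windows. Of all windows 37.4% held CCAAT. Fasn held 3 copies, at -90, -62 and -59 from the start, and the last 2 overlap in the palindrome CCAATTGG. Among the members lower in FGL00 it was found in 10 of 16 and among the others in 7 of 11, close shares of both sets. The GC box GGGCGG, bound by Sp1, was also found in 17 members, against 38.2% of all genes. The E-box was found in Khk, Mlxipl, Elovl5 and Lpin2, against 8.09% of all genes, and the sterol element core in the first Mlxipl window alone, against 1.44% of all genes. A match is a description of the letters only.

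In MGL00 livers 9 of the 33 members were lower and 2 were higher than in MGL40 livers, and Scd1 and Elovl3 had the steepest falls after the same withdrawal in males. Over the 17661 genes tested in males 2.45% were called lower and 9.85% higher. Among all genes called, 80.1% were higher as deposited, 43.1% after median-ratio scaling and 47.4% after removal of the 22 Mup genes (abundant urinary protein genes) from the total. The members kept their direction: the same scalings called 2 higher and 15 lower, and 2 higher and 14 lower. The median log2 fold change was -0.32 over the members and 0.07 over all genes.

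Elovl3, an elongase of saturated and monounsaturated very long chains that male mouse liver expresses far above female liver, had 8.64, 32.6 and 16.1 TPM in the MGL00 livers, against 443, 335 and 321 TPM in the MGL40 livers. Every MGL00 value lay far below every MGL40 value (log2 fold change -4.36, SE 0.42, adjusted p = 5.12e-05). Scd1 had 133, 70.6 and 6.91 TPM in MGL00, against 752, 926 and 2929 TPM in MGL40 (log2 fold change -4.90, SE 0.91, adjusted p = 0.00394). The MGL00 males differed widely among themselves and still did not overlap with MGL40. The value was -4.30 without MGL40-2719 and ran from -5.74 without MGL00-2783 to -3.69 without MGL00-2787. MGL40-2719, with the highest Scd1 of its group, was also the male with the most adipocyte marker TPM. The mouse with the highest Scd1 of all, MGL01-2711 (3169 TPM), had an adipocyte marker sum of 30.8 TPM. MGL00-2787, with the lowest Scd1 of all mice, had a sum of 63.6 TPM. A relation between adipocyte markers and Scd1 was not tested. Scd1 made up 2.71 ± 2.38% of the members' summed TPM in MGL00 and 29.7 ± 14.8% in MGL40.

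The remaining falls in males were smaller. Elovl6 had 5.44, 3.59 and 2.33 TPM in MGL00, against 10.9, 12.3 and 14.7 TPM in MGL40 (log2 fold change -1.55, SE 0.27, adjusted p = 0.0023). Me1 had 45, 43 and 41.1 TPM in MGL00, against 103, 100.5 and 149 TPM in MGL40 (log2 fold change -1.40, SE 0.40, adjusted p = 0.0319). Neither gene overlapped between the groups. Fasn had 46.2, 33.7 and 16.6 TPM in MGL00, against 82.2, 76.6 and 45.9 TPM in MGL40, and the highest MGL00 value just exceeded the lowest MGL40 value (log2 fold change -1.13, SE 0.32, adjusted p = 0.0304). Mlxipl had 173, 157 and 153 TPM in MGL00, against 273, 228 and 219 TPM in MGL40 (log2 fold change -0.57, SE 0.16, adjusted p = 0.0279). Acacb, Elovl2, an elongase of polyunsaturated chains, and Elovl1 changed by -0.98, -0.52 and -0.44.

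Srebf1 and Lpin1 rose in males. Srebf1 had 152, 151 and 107 TPM in MGL00, against 69, 80.3 and 45 TPM in MGL40, without overlap (log2 fold change 1.09, SE 0.23, adjusted p = 0.00789). Lpin1, a phosphatidate phosphatase that also serves as a fasting-induced coactivator, had 20.9, 19.6 and 16.5 TPM in MGL00, against 4.69, 6.78 and 7.04 TPM in MGL40, likewise without overlap (log2 fold change 1.49, SE 0.27, adjusted p = 0.00288). The other 22 members were not called and lay between -0.64 and 0.43 on the log2 scale. They included Acly, Pklr, Gpam, Dgat2 and Nr1h3, with 56, 48.3 and 52.6 TPM in MGL00, against 71.2, 66.4 and 95.8 TPM in MGL40 for Pklr, and 76.8, 81.8 and 75 TPM in MGL00, against 79.8, 69.8 and 70.0 TPM in MGL40 for Nr1h3. The count of 11 dropped to 6 without MGL00-2784, 7 without MGL00-2787 and 6 without MGL40-2690, and it was 9 without MGL40-2719. When each of the 6 mice was left out in turn, the calls of Scd1, Elovl3, Elovl6, Acacb, Srebf1 and Lpin1 held in all 6 fits, those of Fasn, Mlxipl, Elovl1 and Elovl2 in 2, and that of Me1 in 0. In the same livers 6 of 10 Kupffer cell markers were called higher, with sums of 432 to 524 TPM in MGL00 and 275 to 363 TPM in MGL40. Of 7 hepatocyte markers 1 was called higher, with sums of 81264 to 84562 TPM in MGL00 and 64626 to 72621 TPM in MGL40. The Mup genes supplied 0.785% to 1.68% of the TPM in MGL00 and 7.52% to 11.7% in MGL40. Their part in the result was not tested.

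**Figure D2:**
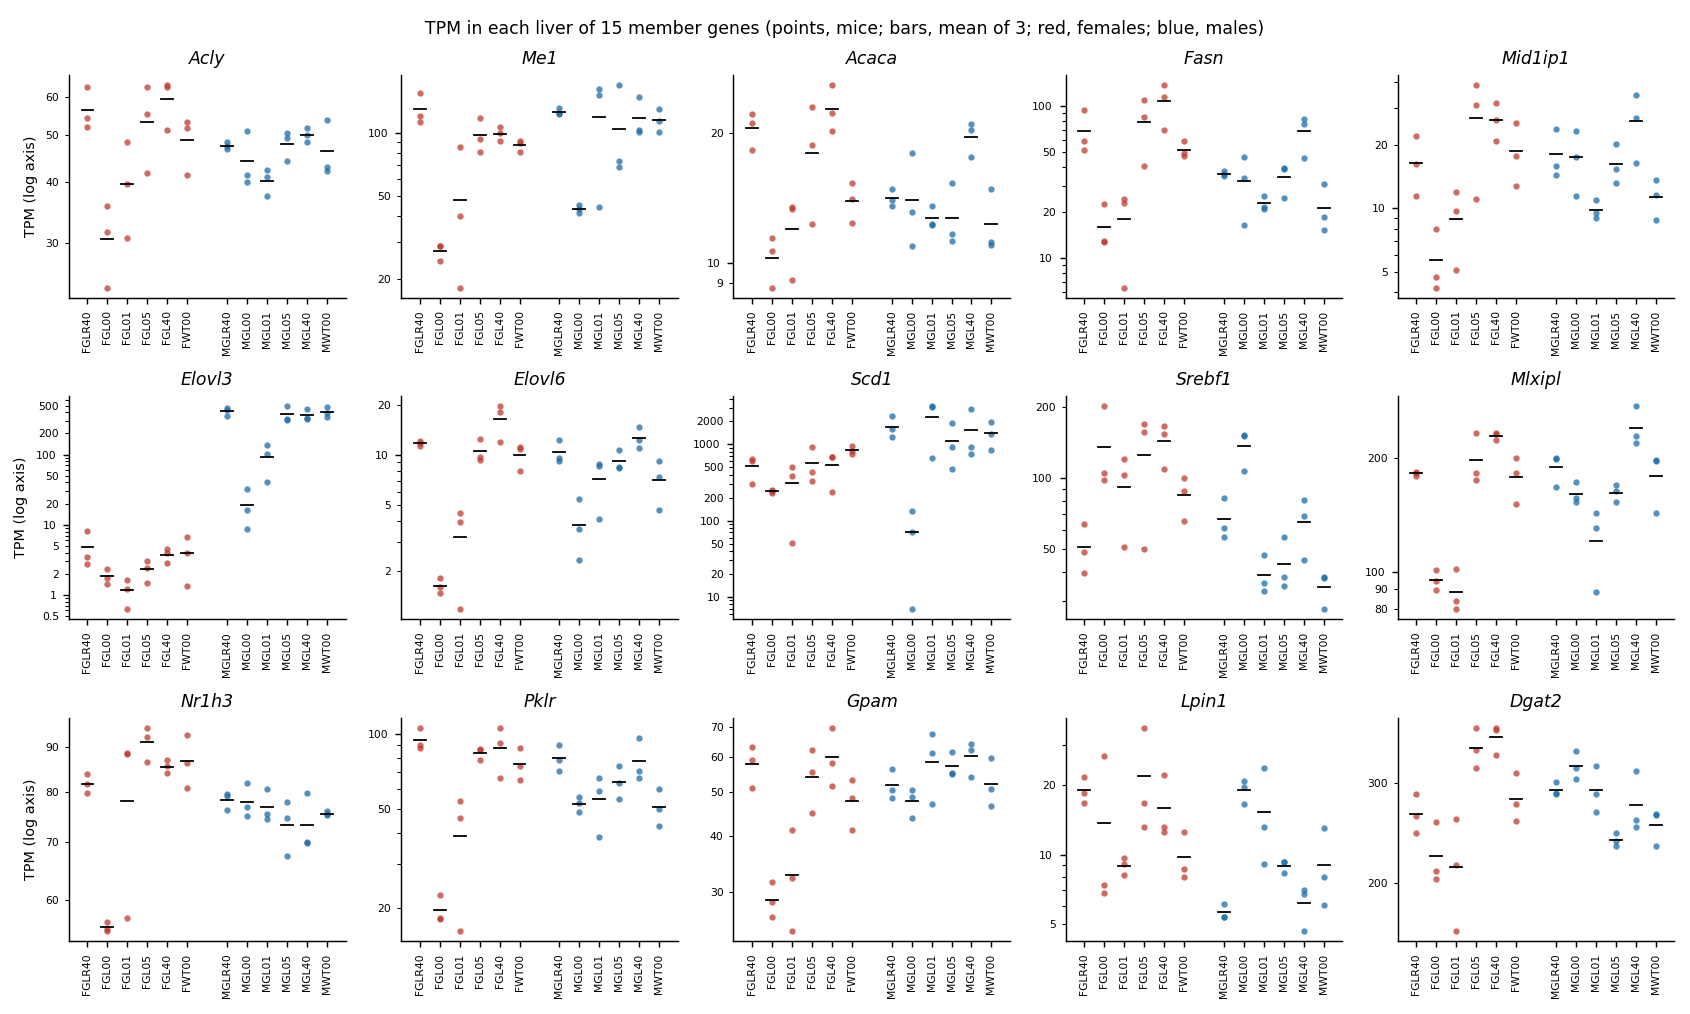
TPM of 15 member genes in each liver, on log axes that do not start at 0. Points are mice, bars are means of 3, females are red and males blue. The panels show the 12 members with the smallest adjusted p for GL00 over GL40 in either sex, and Scd1, Srebf1 and Lpin1, chosen after their values were seen. Elovl3 lies below 10 TPM in all females and drops in MGL00 and MGL01 males, and Nr1h3 is low in the FGL00 mice and in 1 FGL01 mouse.

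Both sexes shared 6 called falls: Fasn, Acacb, Elovl6, Elovl1, Me1 and Mlxipl, which are 33.3% of the 18 called in females and 66.7% of the 9 called in males. In males the calls of Elovl6 and Acacb held in all 6 fits without 1 mouse, those of Fasn, Elovl1 and Mlxipl in 2 and that of Me1 in 0. Against MWT00, 5 of the 9 male falls were not called lower in MGL00: Acacb, Elovl1, Elovl6, Fasn and Mlxipl. Mean Fasn was 32.2 TPM in MGL00, 68.2 TPM in MGL40 and 21.5 TPM in MWT00, so its male fall was seen against MGL40 only. A test of the difference itself, the interaction of sex with GL00 over GL40 in a model of all 36 mice, called 10 members. A negative value means that the female change lay below the male change. Of the 17721 genes tested, 11.3% were called on the negative side and 2.39% on the positive side, and of all genes called 17.5% were positive as deposited, 50.6% after median-ratio scaling and 30.3% without the Mup genes. The median log2 value was -0.42 over the members and -0.10 over all genes.

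The female change lay below the male change in 8 members. Dgat2 (log2 difference -0.94, SE 0.17, adjusted p = 0.000508) and Nr1h3 (log2 difference -0.70, SE 0.14, adjusted p = 0.00149) had the smallest adjusted p on this side. For Dgat2 the change was -0.70 in females and 0.24 in males. Pklr, Mid1ip1 and Lpin1 followed with interaction values of -1.54, -1.53 and -1.92, and Acly, Gpam and Mlxipl with -0.76, -0.70 and -0.68. The male change was the lower one in Scd1 (log2 difference 3.92, SE 1.19, adjusted p = 0.0274) and Elovl3 (log2 difference 3.62, SE 0.59, adjusted p = 0.000197). Female Elovl3 was already at 4.00, 4.43 and 2.85 TPM in FGL40, where the added 1 limits how far a log2 value can fall. The interaction of Fasn was -1.53 and was not called (adjusted p = 0.0812).

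After median-ratio scaling 7 members were called, and Acly, Mid1ip1, Mlxipl and Gpam were no longer among them. The count of 10 was 5 without FGL00-2788, 6 without MGL00-2783 12 without FGL40-2695 and 8 without MGL40-2719. Over the 12 fits without 1 mouse, the calls of Dgat2, Nr1h3, Pklr and Elovl3 held in all 12, that of Lpin1 in 11, Acly in 10, Mlxipl and Scd1 in 8, Gpam in 6 and Mid1ip1 in 3. The adjusted p of Scd1 was 0.0725 without FGL40-2695, 0.0839 without MGL40-2719, 0.101 without MGL00-2787 and 0.0544 without FGL00-2788, with log2 differences of 3.42, 3.32, 2.71 and 3.90. The interaction was also called for 5 of 5 erythroid markers tested, all positive, and 3 of 8 endothelial markers, all negative, and what part these have in the result was not tested.

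**Figure D3:**
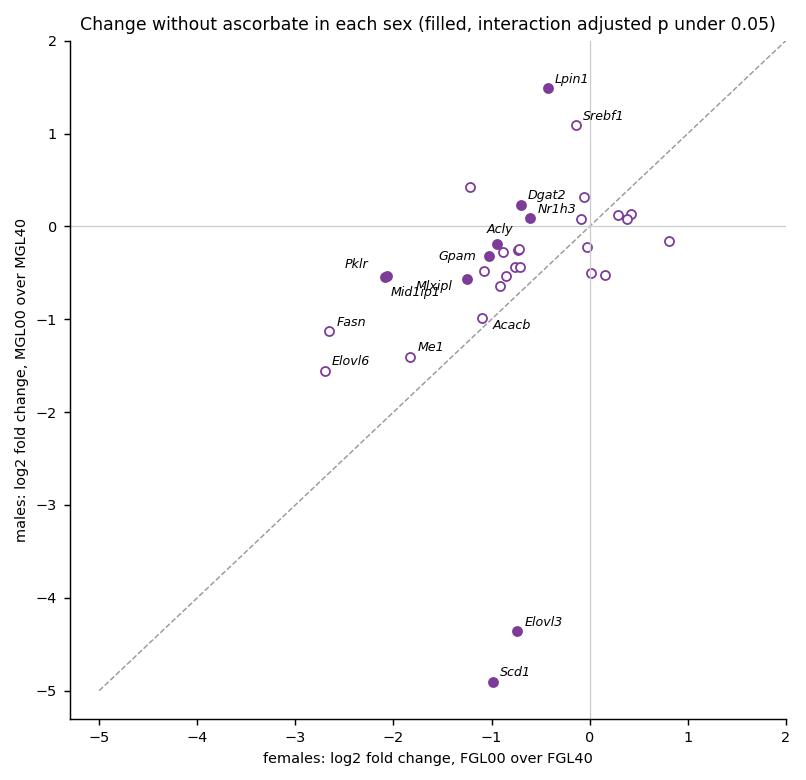
Log2 fold change of each of the 33 members in females (FGL00 over FGL40, horizontal axis) and in males (MGL00 over MGL40, vertical axis), each from 3 mice against 3. Filled points have an interaction adjusted p under 0.05 and the dashed line marks equal change. Scd1 and Elovl3 lie far below the line, and the 8 other filled points lie above it.

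The second question is whether low but continuous supply had the same effect. At 0.01% ascorbate 16 members were lower in FGL01 than in FGL40 livers and 0 were higher, while over all genes 5.58% were lower and 14.3% higher. Of the genes called over the whole table, 71.9% were higher as deposited and 43.4% after median-ratio scaling, which called 17 members lower and 0 higher. At an unadjusted p under 0.05, 2 members were higher. FGL01 and FGL00 were set against the same FGL40 mice, so the results of the pair are not independent. Fasn had 6.41, 23.1 and 24.6 TPM in FGL01 (log2 fold change -2.65, SE 0.45, adjusted p = 0.0013), Elovl6 1.19, 3.97 and 4.45 TPM (log2 fold change -2.14, SE 0.27, adjusted p = 0.000164) and Mlxipl 79.9, 84 and 102 TPM (log2 fold change -1.36, SE 0.12, adjusted p = 7.17e-06), against the FGL40 values given above. For Fasn and Elovl6 FGL01-2722 lay far below the other mice, and for Mlxipl it did not stand apart.

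Thrsp was called here with 5.64, 16.4 and 9.90 TPM in FGL01, against 62, 29.4 and 48.7 TPM in FGL40 (log2 fold change -2.08, SE 0.58, adjusted p = 0.0199), and so was Elovl3 (-1.15). The other called falls were Mid1ip1 (-1.52), Pklr (-1.30), Me1 (-1.29), Fads1 (-0.95), Acaca (-0.88), Fads2 (-0.88), Gpam (-0.87), Dgat2 (-0.78), Acss2 (-0.70), Khk (-0.64) and Acly (-0.59). Nr1h3 had 57.2, 88.4 and 88.7 TPM in FGL01 and was not called: 1 mouse sat at the level of the FGL00 mice and 2 at or above that of the FGL40 mice. The count of 16 was 10 without FGL01-2722, 15 without FGL40-2695 and 9 without FGL40-2694. Of the 16 calls 9 held in all 6 fits without 1 mouse, while Me1 held in 5, Mid1ip1 in 4, Fads2, Khk and Thrsp in 3, Acly in 2 and Elovl3 in 1. Over these fits the log2 change of Pklr ran from -1.62 to -0.78 and that of Me1 from -1.84 to -0.75. In the same livers 5 of 7 lymphocyte markers and 4 of 10 Kupffer cell markers were called higher. The summed lymphocyte markers lay at 32.1 to 178 TPM in FGL01 and 12.3 to 18 TPM in FGL40, and the Kupffer cell markers at 671 to 903 TPM in FGL01 and 507 to 567 TPM in FGL40. Their part in the result was not tested.

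In males 0.01% ascorbate gave fewer calls, 5 members lower and 1 higher in MGL01 than in MGL40, against 1.46% of all genes lower and 1.96% higher. Among all called genes, 57.4% were higher as deposited, 39.7% after median-ratio scaling and 24.8% without the Mup genes. Elovl3 had 136, 102 and 40.4 TPM in MGL01, between the MGL00 and MGL40 values (log2 fold change -2.12, SE 0.42, adjusted p = 0.0144). Fasn had 21.2, 21.8 and 25.8 TPM (log2 fold change -1.49, SE 0.32, adjusted p = 0.0208) and Mlxipl 143, 130.4 and 88.5 TPM (log2 fold change -1.01, SE 0.16, adjusted p = 0.00403). In all 3 genes every MGL01 mouse lay below every MGL40 mouse. Mid1ip1 and Acaca changed by -1.26 and -0.59, and Lpin1 rose by 1.10. Scd1, with 3169, 3088 and 656 TPM in MGL01, was not called, and Srebf1, with 35.8, 33.2 and 46.9 TPM, was not called either (-0.71, adjusted p = 0.106). Of the 6 calls Mlxipl held in all 6 fits without 1 mouse, Elovl3 in 5, Fasn and Mid1ip1 in 2, Lpin1 in 1 and Acaca in 0. MGL01-2713 had the lowest Scd1, Me1 and Elovl3 of its group.

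The count of 6 in MGL01 was 4 without MGL01-2713, 3 without MGL01-2711, 2 without MGL01-2712, 1 without MGL40-2690 and 2 without MGL40-2691, and it was 0 when only these groups entered the model. The interaction of sex with GL01 over GL40 was called for 2 members, Gpam (log2 difference -0.82, SE 0.22, adjusted p = 0.0467) and Dgat2 (log2 difference -0.87, SE 0.17, adjusted p = 0.00666), both lower in females, against 0.779% of all genes on each side. Of all genes called there, 50% were positive as deposited, 25.5% after median-ratio scaling and 78.9% without the Mup genes. That count was 5 without MGL01-2713, 4 without FGL01-2724, 1 without each of FGL01-2722, FGL40-2694, FGL40-2696, MGL01-2711, MGL01-2712, MGL40-2690 and MGL40-2691, and 0 when only these groups entered the model. Dgat2 held in all 12 fits without 1 mouse and Gpam in 3.

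At 0.05% ascorbate limma called 0 members in either sex. At an unadjusted p under 0.05 it gave 2 members in FGL05 over FGL40 and 8 in MGL05 over MGL40, and all other settings run gave 0 called members in both. Over all genes 0% were called in either direction in females, and 0.0396% were called higher and 0.017% lower in males. Fasn had 84.4, 40.1 and 109.9 TPM in FGL05, against 138, 69.4 and 115 TPM in FGL40, with a 95% interval of the log2 change from -1.48 to 0.45. In MGL05 Fasn had 24.8, 39.1 and 38.6 TPM, against 82.2, 76.6 and 45.9 TPM in MGL40, and all 3 mice lay below all 3 controls (-0.96, 95% interval -1.64 to -0.28, adjusted p = 0.344). Elovl3 had 316, 489 and 326 TPM in MGL05 and overlapped with MGL40.

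**Figure D4:**
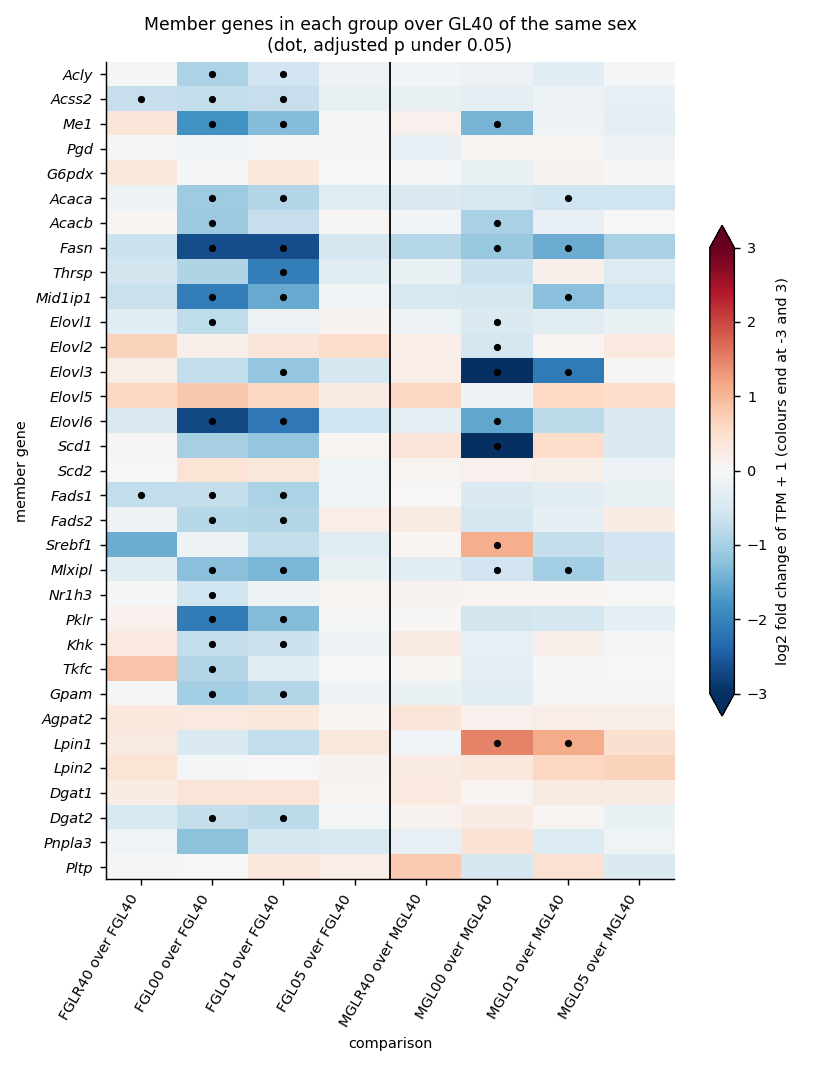
Log2 fold change of TPM + 1 of the 33 members in each Gulo-/- group over GL40 of the same sex, females in the left 4 columns and males in the right 4. Colour gives the value, ending at -3 and 3, and a dot marks an adjusted p under 0.05. All comparisons of a sex share its 3 GL40 mice. Calls number 18 in FGL00, 16 in FGL01, 11 in MGL00 and 6 in MGL01, and only Acss2 and Fads1 are called in FGLR40.

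The third question is whether the transcripts came back when ascorbate was returned. In FGLR40 livers 13 members were higher and 1 was lower than in FGL00 livers, while 16.6% of all genes were higher and 5.3% lower. Among all genes called, 75.8% were higher as deposited and 49.8% after median-ratio scaling, under which the members again gave 13 higher and 1 lower. This comparison and that of FGL00 with FGL40 share the FGL00 mice, so the results of the pair are not independent. Elovl6 had 11.3, 11.7 and 12.1 TPM in FGLR40 (log2 fold change 2.27, SE 0.27, adjusted p = 0.0001), Pklr 88, 106 and 89.9 TPM (log2 fold change 2.22, SE 0.31, adjusted p = 0.000302) and Me1 155, 113 and 121 TPM (log2 fold change 2.20, SE 0.35, adjusted p = 0.000752). None of these overlapped with the FGL00 mice. Fasn had 51.6, 58.7 and 94.4 TPM (log2 fold change 2.02, SE 0.45, adjusted p = 0.00631), Tkfc 363, 387 and 394 TPM, against 114, 119 and 108 TPM in FGL00 (log2 fold change 1.73, SE 0.23, adjusted p = 0.000225), and Mlxipl 184, 179 and 183 TPM (log2 fold change 0.93, SE 0.12, adjusted p = 0.000194). Mid1ip1, Acacb, Khk, Gpam, Acaca, Acly and Nr1h3 rose by 1.40, 1.15, 1.02, 0.98, 0.93, 0.88 and 0.54 on the log2 scale.

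The 1 lower member was Srebf1, with 39.7, 48.4 and 64 TPM in FGLR40, against 105, 201 and 97.9 TPM in FGL00 (log2 fold change -1.34, SE 0.43, adjusted p = 0.0356). Its call held in 2 of the 6 fits without 1 mouse, as did that of Mid1ip1, and the other 12 calls held in all 6. In the same livers 5 of 5 erythroid and 5 of 7 neutrophil markers tested were called lower in FGLR40 than in FGL00, with sums of 453 to 534 TPM in FGLR40 and 1933 to 3428 TPM in FGL00 for the erythroid markers. What part these have in the result was not tested.

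Set against the females that never lacked ascorbate, FGLR40 livers had 2 members lower than FGL40 livers and 0 higher. These were Fads1, with 124, 125 and 136 TPM in FGLR40, against 221, 183 and 248 TPM in FGL40 (log2 fold change -0.74, SE 0.16, adjusted p = 0.0296), and Acss2, with 30.4, 33.4 and 34.5 TPM in FGLR40, against 54.1, 48.3 and 57.8 TPM in FGL40 (log2 fold change -0.69, SE 0.17, adjusted p = 0.0487). Neither gene overlapped between these groups, yet the count was 0 without any single one of the 6 mice: FGLR40-2716, FGLR40-2717, FGLR40-2718, FGL40-2694, FGL40-2695 or FGL40-2696. Over all genes 0.626% were called lower and 1.65% higher, and of all genes called 72.4% were higher as deposited and 29.3% after median-ratio scaling. At an unadjusted p under 0.05, 4 members were higher and 5 lower. Mean Tkfc was 381 TPM in FGLR40, above the 212 TPM of FGL40 and the 193 TPM of FWT00. Mean Khk was 400 TPM in FGLR40, 323 TPM in FGL40 and 297 TPM in FWT00. Neither gene was called between FGLR40 and FGL40. Srebf1 missed the threshold with -1.48 (adjusted p = 0.0745).

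In males 9 members were higher and 2 lower in MGLR40 than in MGL00 livers, against 2.98% of all genes higher and 6.15% lower. Of the genes called over the whole table, 32.6% were higher as deposited, 57.6% after median-ratio scaling and 50% without the Mup genes, while the members gave 11 higher and 2 lower, and 10 higher and 2 lower. Scd1 had 1571, 1235 and 2326 TPM in MGLR40 (log2 fold change 5.29, SE 0.91, adjusted p = 0.00327) and Elovl3 436, 457 and 356 TPM (log2 fold change 4.55, SE 0.42, adjusted p = 5.79e-05). In both genes every MGLR40 mouse lay above every MGL00 mouse and within or near the range of MGL40. Me1, Pltp, Elovl6, Acacb, Fads2, Elovl2 and Khk rose by 1.53, 1.30, 1.29, 0.91, 0.79, 0.71 and 0.50. Srebf1, with 61.5, 56.1 and 82.4 TPM in MGLR40, against 152, 151 and 107 TPM in MGL00, fell (log2 fold change -1.03, SE 0.23, adjusted p = 0.0136), and Lpin1, with 6.10, 5.38 and 5.38 TPM in MGLR40, against 20.9, 19.6 and 16.5 TPM in MGL00, fell too (log2 fold change -1.59, SE 0.27, adjusted p = 0.00248).

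Fasn in males had 35.7, 37.4 and 34.5 TPM in MGLR40, all below the lowest MGL40 value, but the difference from MGL40 was not called (-0.87, adjusted p = 0.393) and neither was that from MGL00 (0.26). For MGLR40 over MGL40 limma called 0 members, as did all other settings run, with 8 at an unadjusted p under 0.05. Over all genes 0.00566% were called higher and 0% lower, which is 1 gene as deposited, 1 higher and 1 lower after median-ratio scaling, and 1 higher and 3 lower without the Mup genes. The count of 11 for MGLR40 over MGL00 was 6 without MGL00-2783, 5 without MGL00-2784, 7 without MGLR40-2828, 5 without MGLR40-2829 and 7 without MGLR40-2831. In these 6 fits Scd1, Elovl3, Elovl6, Elovl2 and Lpin1 were always called, Srebf1 in 3, Acacb and Fads2 in 2, Khk in 1, and Me1 and Pltp in 0.

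Wild type livers give the level in mice that make their own ascorbate. In females limma called 0 members between FGL40 and FWT00, with 7 members at an unadjusted p under 0.05, 0 called in all other settings run, and 0.0499% of all genes called higher and 0.133% lower. The widest members were Thrsp (1.44) and Fasn (0.99, 95% interval 0.03 to 1.96). Fasn had 138, 69.4 and 115 TPM in FGL40, against 47.3, 58.6 and 49.2 TPM in FWT00, and every FGL40 mouse lay above the FWT00 mice. In males Fasn was called higher, with 82.2, 76.6 and 45.9 TPM in MGL40, against 18.6, 15.3 and 30.7 TPM in MWT00 (log2 fold change 1.63, SE 0.32, adjusted p = 0.0441), and Lpin2 lower, with 84.7, 74.7 and 78.5 TPM in MGL40, against 112, 209 and 156 TPM in MWT00 (log2 fold change -0.95, SE 0.20, adjusted p = 0.0495). Over all genes 0.153% were called higher and 0.3% lower, and 33.8% of the genes called were higher as deposited, 53.2% after median-ratio scaling and 46.8% without the Mup genes. The count of 2 was 0 without MGL40-2690, MGL40-2691 or MWT00-2682, 1 without MWT00-2677 or MWT00-2683, and 3 members were called without MGL40-2719.

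Set against FWT00, FGL00 livers had 14 members lower and 0 higher, while 17.4% of all genes were lower and 7.73% higher. Among all called genes, 30.8% were higher as deposited and 50.7% after median-ratio scaling, under which the members again gave 14 lower and 0 higher. No member was higher at an unadjusted p under 0.05. Elovl6 had 1.49, 1.83 and 1.60 TPM in FGL00, against 10.9, 11.1 and 7.94 TPM in FWT00 (log2 fold change -2.05, SE 0.27, adjusted p = 0.000126), Pklr 18, 18.2 and 22.5 TPM, against 74.3, 87.5 and 65.4 TPM (log2 fold change -1.89, SE 0.31, adjusted p = 0.000498), and Mlxipl 89.8, 102 and 94.5 TPM, against 200.2, 183 and 151 TPM (log2 fold change -0.89, SE 0.12, adjusted p = 0.000152). The groups did not overlap in these genes. Fasn, Me1, Mid1ip1, Fads2, Tkfc and Gpam changed by -1.66, -1.64, -1.56, -0.91, -0.75 and -0.70, and Acly, Elovl1, Nr1h3, Khk and Fads1 by -0.67, -0.62, -0.62, -0.59 and -0.58. Scd1, with 249, 245 and 230.0 TPM in FGL00, against 957, 753 and 830.4 TPM in FWT00, did not overlap but missed the threshold (-1.80, adjusted p = 0.0637). Without FWT00-2642 the count was 9. Elovl6, Pklr, Me1, Mlxipl, Gpam and Nr1h3 were called in all 6 fits without 1 mouse, and the other 8 in 3 to 5. In the same comparison 5 of 5 erythroid and 5 of 7 neutrophil markers tested were called higher and 3 of 8 endothelial markers lower. The erythroid sum was 1933 to 3428 TPM in FGL00 and 385 to 870 TPM in FWT00. Their part in the result was not tested.

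In males MGL00 livers had 5 members lower and 3 higher than MWT00 livers, against 4.04% of all genes lower and 6.72% higher. Of all genes called, 62.4% were higher as deposited, 46.9% after median-ratio scaling and 43.1% without the Mup genes. Scd1 (log2 fold change -4.96, SE 0.91, adjusted p = 0.00362) and Elovl3 (log2 fold change -4.51, SE 0.42, adjusted p = 3.63e-05) again had the most negative values. Scd1 had 133, 70.6 and 6.91 TPM in MGL00, against 846, 1956 and 1374 TPM in MWT00, and Elovl3 8.64, 32.6 and 16.1 TPM in MGL00, against 346, 478 and 394 TPM in MWT00. Me1, Elovl2 and Fads2 changed by -1.39, -0.94 and -0.75. Srebf1 had 152, 151 and 107 TPM in MGL00, against 38.2, 27.8 and 37.7 TPM in MWT00, without overlap (log2 fold change 1.95, SE 0.23, adjusted p = 0.000227). Lpin1 and Dgat2 rose by 1.05 and 0.35. The rise of Dgat2 was not called without the Mup genes, and the count of 8 was 5 without MGL00-2784, MGL00-2787, MWT00-2682 or MWT00-2683. Scd1, Elovl3, Elovl2 and Srebf1 were called in all 6 fits without 1 mouse, Dgat2 in 3, Lpin1 and Fads2 in 2 and Me1 in 0.

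Over all treatments the sexes differed in 17 members. In females 10 were higher and 7 lower than in males as deposited, while median-ratio scaling called 6 higher and 10 lower and removal of the Mup genes 8 and 8. Over all genes 39.3% were higher and 8.32% lower, and of those called 82.5% were higher as deposited, 49.0% after median-ratio scaling and 69.3% without the Mup genes. Of the members 30.3% were higher and 21.2% lower, so the total of 17 is not by itself a result about the members. Elovl3 stood out: in FGL40 it had 4.00, 4.43 and 2.85 TPM, against 443, 335 and 321 TPM in MGL40, and over all treatments its log2 difference was -5.64 (SE 0.17, adjusted p = 2.85e-20). Its mean was 97.4-fold higher in males at 0.4% ascorbate and 10.3-fold higher in GL00. Markers of other cells also differed: 10 of 10 Kupffer cell, 7 of 7 lymphocyte, 6 of 8 endothelial, 6 of 9 stellate cell and 6 of 7 neutrophil markers tested were called higher in females. Their part in the sex differences was not tested.

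Scd1 was lower in females over all (-0.88), with 676, 239.8 and 675 TPM in FGL40, against 752, 926 and 2929 TPM in MGL40. In GL00 the order was the other way round: 249, 245 and 230.0 TPM in FGL00, against 133, 70.6 and 6.91 TPM in MGL00, with no overlap. Srebf1 was higher in females over all (log2 difference 0.74, SE 0.15, adjusted p = 0.000165). In the GL40, GL01 and WT00 treatments every female exceeded every male, while in GL00 and GL05 the ranges overlapped. In GLR40 the order was turned and the ranges overlapped, with a mean of 50.7 TPM in females and 66.6 TPM in males. The other calls were Thrsp (0.64), Scd2 (0.63), Pnpla3 (0.61), Lpin1 (0.45), Fasn (0.41), Acacb (0.36), Pgd (0.34), G6pdx (0.20) and Dgat1 (0.15) on the higher side and Me1 (-0.43), Lpin2 (-0.35), Gpam (-0.27), Fads2 (-0.27) and Mlxipl (-0.17) on the lower. These values average the treatments. Scd2, Acacb, Pgd and Fads2 kept their sign in each treatment. For Mlxipl the log2 difference was -0.75 in GL00 and -0.42 in GL01, against -0.07 in GL40 and 0.27 in GL05. For Gpam it was -0.71 in GL00 and -0.83 in GL01, against -0.01 in GL40 and -0.09 in GL05. Fasn and Lpin1 were lower in females in GL00 (-0.89 and -0.70) and GL01 (-0.52 and -0.62). So were Pnpla3 in GL00 (-0.55) and Thrsp in GL01 (-1.03). The calls of G6pdx, Fasn, Lpin1 and Dgat1 were lost after median-ratio scaling. Over the 36 fits without 1 mouse, Fasn was called in 15, Scd1 in 24 and Me1 in 31, and the other 14 in all.

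A group of 9 members was called in no comparison of GL00 or GL01 with GL40 in either sex: Agpat2, Dgat1, Elovl5, G6pdx, Lpin2, Pgd, Pltp, Pnpla3 and Scd2. Agpat2 and Pgd had 263 ± 9.81 and 21.4 ± 2.31 TPM in FGL00, against 215 ± 18.4 and 22.8 ± 3.35 TPM in FGL40 (mean ± SD, n = 3 each). Elovl5, an elongase of polyunsaturated chains, ranged more within groups, with 366, 189 and 309 TPM in FGL00, against 158, 146 and 172 TPM in FGL40. Pnpla3 lay under 7 TPM in all mice, where the added 1 makes log2 values smaller. Scd2, the desaturase of brain and other tissues outside the liver, had 3.75 ± 1.40 TPM in FGL00, against 2.46 ± 0.405 TPM in FGL40. Reads of Scd1 and Scd2 could in part be shared between these similar genes, which was not tested.

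Another 111 genes of the surrounding pathways were listed by role. In FGL00 over FGL40, 32 of the 109 tested were called lower and 9 higher, and in MGL00 over MGL40, 12 of 110 lower and 10 higher. The shares over all genes tested were 13.7% lower and 9.56% higher in females and 2.45% lower and 9.85% higher in males, and a list's count near these shares is not a result about the list. The insulin signal list had 5 of 13 lower and 0 higher in females, and 0 lower and 2 higher in males. Irs1, a substrate of the insulin receptor, had 2.64 ± 0.481 TPM in FGL00, against 5.54 ± 0.356 TPM in FGL40 (log2 fold change -0.85, SE 0.17, adjusted p = 0.00202; mean ± SD, n = 3 each). In males Foxo1 (log2 fold change 0.62, SE 0.12, adjusted p = 0.00452), the factor that insulin shuts out of the nucleus, and Insr (log2 fold change 0.47, SE 0.09, adjusted p = 0.00392), the insulin receptor, were higher. The interaction was called for 8 of these 13 genes, all negative, among them Insr (log2 difference -0.52, SE 0.12, adjusted p = 0.00466) and Irs1 (log2 difference -0.73, SE 0.23, adjusted p = 0.0364). Over all genes 11.3% were called negative and 2.39% positive in this interaction. Of all genes called there, 17.5% were positive as deposited, 50.6% after median-ratio scaling and 30.3% without the Mup genes. The insulin signal list was not counted again under these scalings.

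Among the carbon supply genes 7 of 14 fell and 1 rose in females, while 1 fell and 1 rose in males. Aacs, which activates acetoacetate for lipid synthesis, had 1.60 ± 0.266 TPM in FGL00, against 10.2 ± 5.44 TPM in FGL40 (log2 fold change -1.99, SE 0.35, adjusted p = 0.000976). Slc25a1, the mitochondrial citrate carrier, changed by -0.50 in males. In the list of SREBP processing and partners 3 of 13 fell and 1 rose in females and 1 fell in males. Nfya, a subunit of NF-Y, was lower in FGL00 (log2 fold change -0.85, SE 0.14, adjusted p = 0.000607). Insig2, which holds SREBP in the endoplasmic reticulum, had 148 ± 6.09 TPM in MGL00, against 309.9 ± 37.5 TPM in MGL40 (log2 fold change -1.06, SE 0.09, adjusted p = 1.60e-05), and 283 ± 51.9 TPM in FGL00, against 298 ± 7.88 TPM in FGL40 (interaction log2 difference 0.97, SE 0.21, adjusted p = 0.00267).

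The lipid droplet, lipolysis and export list had 8 of 19 tested lower and 4 higher in females and 5 of 20 lower and 1 higher in males. Plin4, a lipid droplet coat protein, had 34.2 ± 21.9 TPM in MGL00, against 5.09 ± 3.01 TPM in MGL40 (log2 fold change 2.43, SE 0.43, adjusted p = 0.00296), and 26.5 ± 11.7 TPM in FGL00, against 1.70 ± 0.891 TPM in FGL40 (log2 fold change 3.32, SE 0.54, adjusted p = 0.000655). Lipc, the hepatic lipase, was lower in FGL00 (log2 fold change -1.63, SE 0.21, adjusted p = 0.000126), and Pnpla2, the triglyceride lipase of droplets, was higher (log2 fold change 1.15, SE 0.19, adjusted p = 0.00064). In males Plin2 (log2 fold change -0.79, SE 0.17, adjusted p = 0.00789) and Mttp (log2 fold change -0.64, SE 0.14, adjusted p = 0.00925), which loads lipid onto apolipoprotein B, were lower. In the nuclear receptor list Pparg rose in FGL00, with 16.1 ± 1.87 TPM, against 5.99 ± 0.606 TPM in FGL40 (log2 fold change 1.29, SE 0.16, adjusted p = 8.52e-05), and Rxra rose in MGL00 (log2 fold change 0.57, SE 0.10, adjusted p = 0.00237). The remaining lists, of other elongation and desaturation, other glycerolipid synthesis and other NADPH genes, had 2 of 17, 3 of 14 and 3 of 8 lower and 1, 1 and 0 higher in females, and 4 of 17, 1 of 14 and 0 of 8 lower and 2, 2 and 1 higher in males. Agpat1, an acyltransferase beside Agpat2, had 4.02 ± 0.385 TPM in FGL00, against 7.94 ± 0.618 TPM in FGL40 (log2 fold change -0.83, SE 0.16, adjusted p = 0.00188), and Gpat3 rose in MGL00 (log2 fold change 1.35, SE 0.30, adjusted p = 0.00961).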

How the data were processed

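Livers of 36 mice (18 of each sex, 3 in each of 12 groups) were sequenced as poly(A) RNA. The authors trimmed reads with fastp 0.20.0 and quantified them against Ensembl mouse transcripts with kallisto 0.46.2, and they deposited TPM per gene, which sum to 1000000 in each mouse. No counts were used, so depth and counting error are unknown here, and a ratio of TPM depends on all other genes of the library. Animals are separate replicates.

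TPM was analysed as log2(TPM + 1), a pseudocount of 1, which understates changes of low genes, with limma 3.58.1 (R 4.3.3, trend and robust variance moderation, statmod 1.5.0). Each sex had 1 model of 18 mice, on genes above 0 TPM in at least 13, and a model of 36 mice, on genes above 0 in at least 26, gave the sex difference and the interactions. P-values were two-sided and adjusted by Benjamini-Hochberg over all genes tested. The 95% intervals are unadjusted. The fitting procedure was run on simulated data with independent normal noise for each gene and known changes in some genes. That simulation held no shift in library composition and no outlying mouse, so it does not show how calls depend on these. Alternatives were median-ratio scaling, totals without Mup genes, a pseudocount of 0.1, no filter, a filter of 1 TPM in 3 mice, array weights, a required ratio above 2, only the groups compared, each mouse left out, and, for the sex difference, an unmoderated test of TPM.

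Members and gene lists were chosen with earlier results of these data known. Every called member is named. Of each other list, at most the 4 called genes with the smallest adjusted p for GL00 over GL40 in a sex are named, with their values in the other sex. TPM per mouse is given for the 12 members with the smallest adjusted p, and for Scd1, Srebf1, Lpin1 and others chosen after their values were seen. Of the insulin signal list, 1 gene is not reported here by name.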

Additional observations from a re-analysis of the deposited data

Results flagged for a closer look

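The change after withdrawal of ascorbate differed between the sexes in 10 members by the interaction term of limma with Benjamini-Hochberg adjustment over all genes tested. The log2 difference of the female change (FGL00 over FGL40) minus the male change (MGL00 over MGL40) was 3.92 for Scd1 and 3.62 for Elovl3, in both of which the male change was the lower one. It was -1.92 for Lpin1, -1.54 for Pklr, -1.53 for Mid1ip1, -0.94 for Dgat2, -0.76 for Acly, -0.70 for Nr1h3, -0.70 for Gpam and -0.68 for Mlxipl. After median-ratio scaling Acly, Mid1ip1, Mlxipl and Gpam were not called, and without the Mup genes Mid1ip1, Mlxipl and Gpam were not called. Over the 12 fits without 1 mouse, Dgat2, Nr1h3, Pklr and Elovl3 were called in all 12, Lpin1 in 11, Acly in 10, Mlxipl and Scd1 in 8, Gpam in 6 and Mid1ip1 in 3.

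At 0.01% ascorbate the female change (FGL01 over FGL40) lay below the male change (MGL01 over MGL40) by the same term in Dgat2 (-0.87), called in all 12 fits without 1 mouse, and Gpam (-0.82), called in 3. These interactions share the GL40 mice with those of GL00.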

How the results depend on the processing

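No called value of a single member changed its sign. The median over the 33 members was near 0 and changed sign after median-ratio scaling for females over males (0.02 as deposited and -0.12 scaled) and for MGLR40 over MGL40 (0.05 as deposited and -0.01 scaled). Limma called 0 members under every setting run for FGL05 over FGL40, FGL40 over FWT00, MGL05 over MGL40 and MGLR40 over MGL40. When a ratio above 2 was required, the counts were 9 for FGL00 over FGL40, 8 for FGL01 over FGL40, 0 for FGLR40 over FGL40, 5 for FGL00 over FWT00, 5 for MGL00 over MWT00 and 3 for females over males. Without a filter they were 1 for FGLR40 over FGL40, 0 for MGL40 over MWT00 and 1 for the interaction of sex with GL01 over GL40. Array weights gave 6 for FGLR40 over FGL40, 16 for the interaction with GL00 over GL40 and 9 for that with GL01 over GL40. With only the groups compared in the model the counts were 7 for FGLR40 over FGL40, 0 for MGL01 over MGL40, 0 for MGL40 over MWT00 and 0 for the interaction with GL01. Median-ratio scaling gave 17 for MGL00 over MGL40 and 4 for the interaction with GL01, and a pseudocount of 0.1 gave 1 for MGL40 over MWT00 and 1 for the interaction with GL01. The unmoderated test of TPM called 10 members for females over males. The cause of these shifts was not tested, beyond the larger change that a ratio above 2 asks for.

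Leaving out each mouse in turn gave 16 to 19 members for FGL00 over FGL40, 9 to 16 for FGL01 over FGL40, 0 to 0 for FGLR40 over FGL40, 12 to 14 for FGLR40 over FGL00, 9 to 14 for FGL00 over FWT00, 6 to 10 for MGL00 over MGL40, 1 to 6 for MGL01 over MGL40, 5 to 8 for MGLR40 over MGL00, 0 to 3 for MGL40 over MWT00, 5 to 9 for MGL00 over MWT00, 14 to 18 for females over males, 5 to 12 for the interaction with GL00 and 1 to 5 for that with GL01. Of the 131 called results of single members, the other settings lost 116 of 1036 calls and leaving out a mouse lost 233 of 1368. No paired analysis was possible because animal numbers are unique and the groups share no replicate number.

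With 3 mice a group and no counts, members near the threshold depend on single mice, and low members such as Pnpla3, Scd2 and female Elovl3 are compressed by the added 1. The mice GLR40 and GL00 also differ in when ascorbate was missing.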
